A study of Mus musculus with 28 samples.

Results

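The genes studied were 9 enzymes and helpers that make or break down eicosanoids, the signalling lipids derived from arachidonic acid: Pla2g4a, Ptgs1, Ptgs2, Ptges, Hpgd, Alox5, Alox5ap, Alox12 and Alox15. They were taken by symbol from a table of 49492 genes, and all 9 were found there. All 9 were also among the 15812 genes that passed the filter on low counts, Alox15 only through the 55-week villin-PPARD libraries, where it was high. RNA came from villin-PPARD mice and their wild-type littermates, from epithelium scraped by hand off the corpus, the body of the stomach that secretes acid. PPARD is a lipid-activated nuclear receptor, and the transgene was driven by the villin promoter, which is mainly used for intestinal epithelium. The villin-PPARD groups held 5 mice at 10 weeks of age, 4 at 25 weeks and 5 at 55 weeks, and the wild-type groups held the same numbers, 28 libraries in all. Villin-PPARD was the only genetic change named for any group, and no treatment was named.

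Eicosanoid synthesis starts when cytosolic phospholipase A2, the product of Pla2g4a, frees arachidonic acid from membranes. The cyclooxygenases Ptgs1 and Ptgs2 turn it into prostaglandin H2, from which Ptges makes prostaglandin E2, a protector of the gastric mucosa, and Hpgd inactivates that product. Alox5, helped by the membrane protein Alox5ap, opens the leukotriene branch, and Alox12 and Alox15 add oxygen at other positions of the fatty acid.

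Total counts ranged from 10982888 to 30891108 per library. The Ppard gene, read as a check of the genotype labels, was higher in villin-PPARD mice by a log2 difference of 0.56 ± 0.09 (SE) at 10 weeks, 0.31 ± 0.10 at 25 weeks and 0.23 ± 0.09 at 55 weeks, all 3 of them called by edgeR's quasi-likelihood test (Ppard adjusted p = 2.548e-05, 0.01834 and 0.03071). Counts could not tell the transgene's reads from those of the mouse gene. Wild-type replicates 2 and 3 of 10 weeks were closer to each other than any other pair within a group, at a chi-square per degree of freedom of 4.26 against 15.1 for the next pair, and were kept as separate libraries. The 55-week villin-PPARD libraries stood apart in makeup: their 10 most abundant genes took 13.9% to 15.3% of counts, against 29.2% to 35.6% in the 55-week wild-type libraries. Mitochondrial genes took 2.01% to 5.24% of counts in villin-PPARD and 6.85% to 20.4% in wild-type libraries at 55 weeks, and 1.57% to 4.82% in villin-PPARD and 4.81% to 11.9% in wild-type libraries at 10 weeks. The part of this difference in the results was not tested. Values below are CPM, read counts relative to library totals scaled with TMM factors, differences are villin-PPARD minus wild type on the log2 scale, and a gene counts as called where its p, adjusted by Benjamini-Hochberg over all 15812 genes, was under 0.05.

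Pla2g4a and Ptgs2 are neighbours on mouse chromosome 1 (GRCm38, GENCODE M21 annotation). Pla2g4a spans 149829618 to 149961290 on the minus strand and Ptgs2 spans 150100031 to 150108227 on the plus strand, so that their 5′ ends face each other across 138.7 kb that holds 0 protein-coding genes. Their promoter windows are shown, from RefSeq on GRCm38.p6, because the 2 genes are adjacent protein-coding neighbours and both rose at 55 weeks. Each runs from 250 bases before the start site to 50 bases after it, 5′ to 3′ on the gene's strand, at chr1:149961241-149961540 (minus strand) for Pla2g4a and chr1:150099781-150100080 (plus strand) for Ptgs2. Capitals mark exact matches to the motifs described after the sequences.
Pla2g4a: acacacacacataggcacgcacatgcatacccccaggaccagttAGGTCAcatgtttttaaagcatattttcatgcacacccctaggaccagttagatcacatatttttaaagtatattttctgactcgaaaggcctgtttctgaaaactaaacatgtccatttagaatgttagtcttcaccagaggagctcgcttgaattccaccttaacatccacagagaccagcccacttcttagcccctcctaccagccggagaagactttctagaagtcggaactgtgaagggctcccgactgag
Ptgs2: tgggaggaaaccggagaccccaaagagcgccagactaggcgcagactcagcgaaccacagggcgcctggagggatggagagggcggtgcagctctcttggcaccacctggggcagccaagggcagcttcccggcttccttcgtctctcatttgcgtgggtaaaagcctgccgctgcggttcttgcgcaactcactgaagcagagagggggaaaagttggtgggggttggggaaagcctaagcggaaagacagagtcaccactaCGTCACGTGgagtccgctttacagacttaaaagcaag
The motifs were searched on both strands in the 7 of 9 genes that had a window in the RefSeq table (Ptgs1, Ptgs2, Ptges, Hpgd, Alox5, Alox12 and Pla2g4a). The capitals in Pla2g4a are the nuclear receptor half-site AGGTCA, found in 16.3% of the 32851 windows searched in that table and in no other of the 7 genes. A direct repeat of AGGTCA with 1 base of any kind between the copies, the arrangement that PPAR and its partner RXR are known to bind, was in 0.0396% of windows and in none of the 7. The capitals in Ptgs2 hold the E-box CACGTG, present in 7.15% of windows, overlapping on its 5′ side the cAMP response element core TGACG read on the opposite strand, present in 20.8%. These letters describe the windows, and no binding was measured.

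At 55 weeks 7 of the 9 genes differed by genotype, beside 59.3% of all genes tested. Pla2g4a, Ptgs2, Alox12 and Alox15 were higher in villin-PPARD mice, a count of 4 beside a background of 31.7% of genes called higher. Alox15 passed the count filter only through the 55-week villin-PPARD libraries, where it was high. Its call cannot be taken apart from the filter, here and in every count below that includes it. Alox5, Alox5ap and Ptgs1 were lower, a count of 3 beside 27.6%. Ptges and Hpgd did not pass. The median log2 difference of the 9 genes was 0.59, against 0.03 for all genes tested. At 10 weeks 0 of the 9 were called, beside 34.0% of all genes, and at 25 weeks Pla2g4a alone was, beside 39.6%. The count of 0 at 10 weeks came from edgeR, whose smallest unadjusted p among the 9 genes was 0.122, so that 0 of 9 lay under 0.05 before adjustment, and DESeq2 also called 0. In bulk libraries of this kind, fewer cells of a type and less RNA per cell cannot be told apart.

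**Figure D1:**
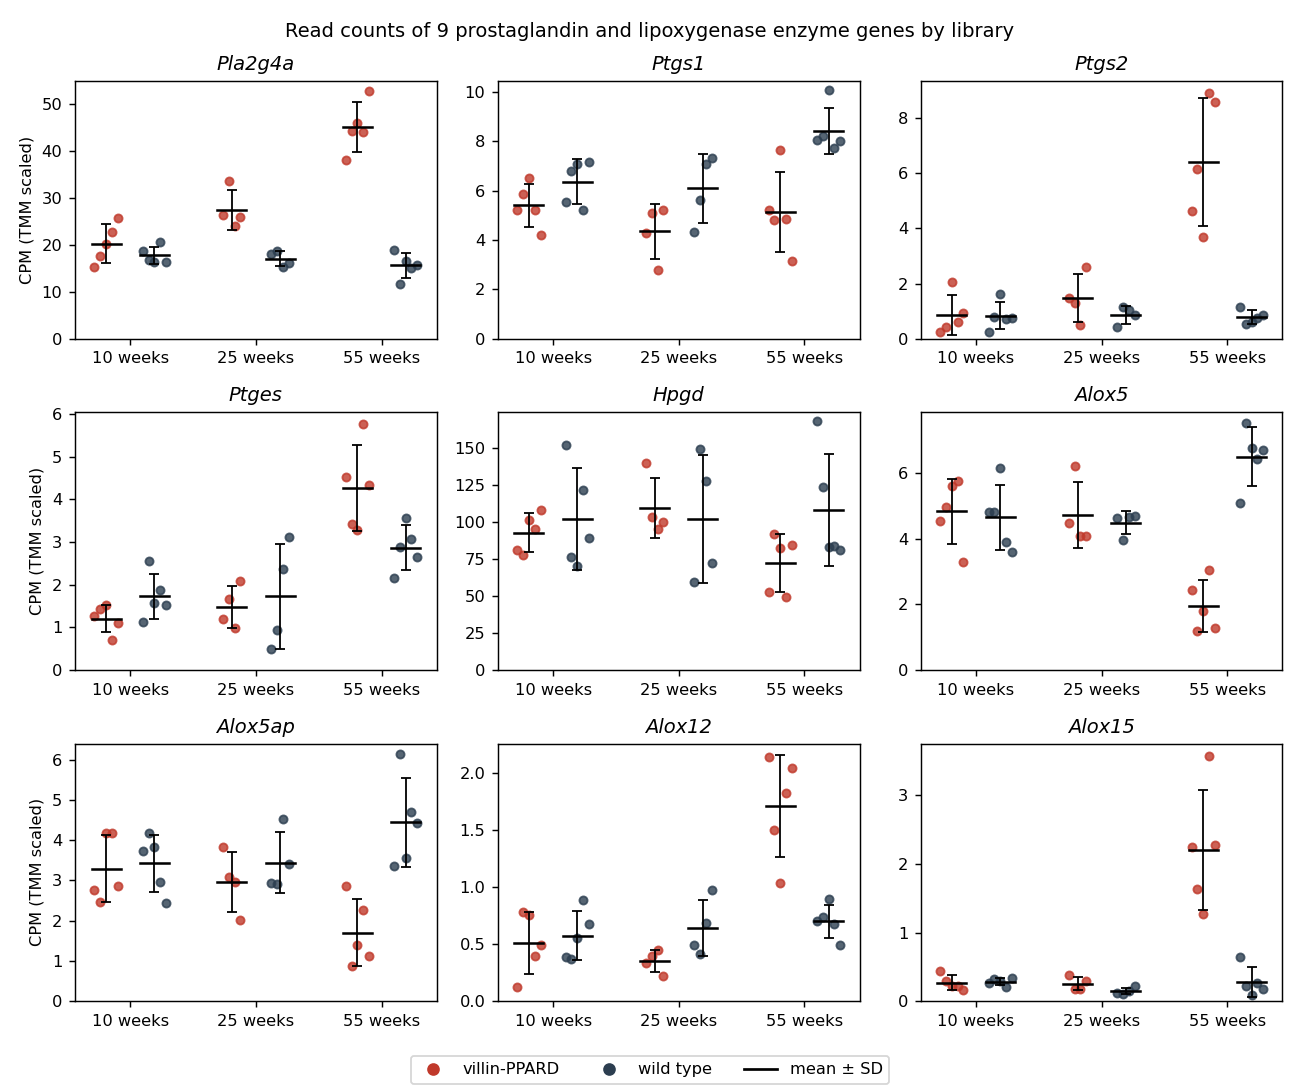
TMM-scaled CPM of the 9 genes in each of the 28 libraries at 10, 25 and 55 weeks, with villin-PPARD left of wild type at each age; points are libraries and bars are means ± SD. At 55 weeks the villin-PPARD points of Ptgs2, Alox12, Alox15 and Pla2g4a lie above all 23 other libraries and those of Alox5 lie below all 23.

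Pla2g4a, which releases the substrate for the whole pathway, was the first of the 9 to differ and did so at the next age as well. At 10 weeks it averaged 20.3 ± 4.12 CPM in villin-PPARD mice and 17.7 ± 1.83 CPM in wild-type mice (SD, n = 5 each), a log2 difference of 0.19 ± 0.13 (SE) that was not called (Pla2g4a adjusted p = 0.2537, edgeR). At 25 weeks it read 26.3, 33.6, 24.01 and 25.8 CPM in villin-PPARD libraries, against 17.98, 18.6, 15.4 and 16.2 CPM in wild-type libraries. The 4 villin-PPARD values lay above all 4 wild-type values, and the log2 difference was 0.69 ± 0.14 (SE), a 1.62-fold excess (Pla2g4a adjusted p = 0.0004046, edgeR). The groups did not overlap in 27.3% of all genes tested at that age.

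At 55 weeks Pla2g4a read 38.1, 44.3, 45.9, 44.0 and 52.8 CPM in villin-PPARD libraries, against 18.9, 11.7, 16.6, 15.1 and 15.8 CPM in wild-type libraries. The lowest villin-PPARD library stood above every one of the 23 others. Its genotype difference was 1.53 ± 0.13 (SE), or 2.88-fold (Pla2g4a adjusted p = 2.532e-11, edgeR). That difference was larger at 55 than at 10 weeks by 1.33 ± 0.18 (adjusted p = 8.859e-07), and larger than at 25 weeks by 0.83 ± 0.19 (adjusted p = 0.001407). Between 10 and 25 weeks the change of 0.50 ± 0.19 was not called (adjusted p = 0.3335).

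The genotype differences of the 2 cyclooxygenases at 55 weeks had opposite signs. Ptgs2, the inducible form, read 4.64, 6.14, 3.70, 8.90 and 8.60 CPM in the 55-week villin-PPARD libraries, against 1.15, 0.517, 0.624, 0.770 and 0.861 CPM in the wild-type libraries. All 5 villin-PPARD values exceeded every other library of the series, and the genotype difference was 2.98 ± 0.43 (SE), or 7.91-fold (Ptgs2 adjusted p = 1.018e-06, edgeR). At 25 weeks Ptgs2 averaged 1.47 ± 0.87 CPM in villin-PPARD mice and 0.867 ± 0.315 CPM in wild-type mice (SD, n = 4 each), a difference of 0.73 ± 0.53 (SE) that was not called (adjusted p = 0.2778). At 10 weeks the groups averaged 0.854 ± 0.715 and 0.831 ± 0.488 CPM (villin-PPARD and wild type, SD, n = 5 each). The genotype difference was larger at 55 weeks than at 10 weeks by 2.91 ± 0.65 (adjusted p = 0.0007501) and than at 25 weeks by 2.25 ± 0.69 (adjusted p = 0.01492).

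Ptgs1, the constitutive cyclooxygenase, was lower at 55 weeks, reading 5.21, 4.82, 7.66, 4.84 and 3.14 CPM in villin-PPARD libraries, against 8.06, 8.21, 10.1, 7.74 and 7.999 CPM in wild-type libraries. Its groups did not overlap, although the highest villin-PPARD value of 7.66 CPM came close to the lowest wild-type value of 7.74 CPM. The difference of −0.71 ± 0.19 (SE) was called (Ptgs1 adjusted p = 0.001528, edgeR), but with library size as the only scaling it was −0.31 and was not (adjusted p = 0.1412). Library size alone moved the median of all genes by 0.40 at 55 weeks and by 0.16 at 25 weeks, and 78.9% of calls were then higher at 55 weeks, against 53.4% with TMM. From 10 to 55 weeks Ptgs1 changed by −0.08 ± 0.19 (SE) in villin-PPARD mice and by 0.40 ± 0.19 in wild-type mice. Neither change was called (adjusted p = 0.7461 and 0.1508, edgeR). At 25 weeks Ptgs1 differed by −0.51 ± 0.22, which edgeR did not call (adjusted p = 0.06258) and DESeq2 did (−0.53, adjusted p = 0.0471). The edgeR call was gained without villin-PPARD replicate 2 or 4 or wild-type replicate 1 of 25 weeks, or villin-PPARD replicate 3 or 5 of 55 weeks (adjusted p of 0.02626 to 0.04808). Ptgs1 shares 148 exonic bases with Gm43621 on the other strand, and since the kit did not mark strand the reads there cannot be told apart.

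The share of Ptgs2 among all reads of both cyclooxygenases needs no scaling between libraries; this measure was chosen after the values had been seen. At 55 weeks it was 47.1%, 56.0%, 32.5%, 64.8% and 73.3% in villin-PPARD libraries, against 12.5%, 5.93%, 5.83%, 9.04% and 9.72% in wild-type libraries. The means were 54.7% ± 15.8 and 8.61% ± 2.80 (SD, n = 5 each), with an exact two-sided permutation p of 0.00794, the smallest that 5 against 5 mice can give, and 0.0238 after adjustment over 3 ages. At 25 weeks the share was 23.6% ± 7.77 in villin-PPARD mice and 12.3% ± 3.45 in wild-type mice (SD, n = 4 each; exact permutation p = 0.0571, or 0.0856 after adjustment). Without villin-PPARD replicate 3 of that age the exact permutation p, unadjusted, was 0.0286, and without any other library of that age it was 0.0571 to 0.114. It was 12.8% ± 8.13 and 11.1% ± 5.08 at 10 weeks (SD, n = 5 each; exact permutation p = 0.69). Per kilobase of exon, Ptgs2 reached 1.397 ± 0.507 CPM per kb in villin-PPARD mice at 55 weeks, next to 1.32 ± 0.42 for Ptgs1 in the same mice. In wild-type mice of that age Ptgs2 stood at 0.171 ± 0.053 and Ptgs1 at 2.17 ± 0.24 CPM per kb (SD, n = 5 each).

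**Figure D2:**
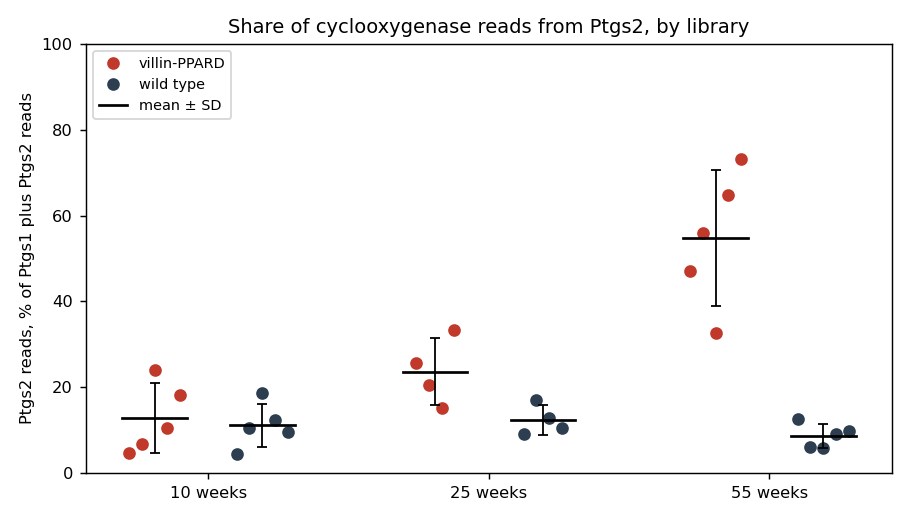
Ptgs2 reads as a percentage of Ptgs1 plus Ptgs2 reads in each library at 10, 25 and 55 weeks, villin-PPARD left of wild type; points are libraries and bars are means ± SD. The 55-week villin-PPARD libraries lie between 32.5% and 73.3% and the wild-type libraries of that age between 5.83% and 12.5%.

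Ptges, which converts prostaglandin H2 into prostaglandin E2, read 4.53, 3.41, 3.27, 5.77 and 4.34 CPM in 55-week villin-PPARD libraries, against 2.15, 2.88, 3.56, 3.08 and 2.65 CPM in wild-type libraries. The 3 highest villin-PPARD libraries stood above all wild-type libraries and the other 2 overlapped with them. The genotype difference of 0.59 ± 0.29 (SE) was not called (Ptges adjusted p = 0.08028, edgeR). It was called when the fit held only the 55-week groups (0.56, adjusted p = 0.02526), without wild-type replicate 1 of 25 weeks (0.59, adjusted p = 0.03786), and with library size alone (1.01, adjusted p = 0.003269). Within villin-PPARD mice Ptges was higher at 55 weeks than at 10 weeks by 1.83 ± 0.31 (adjusted p = 9.539e-06), and within wild-type mice the same difference of 0.72 ± 0.31 was not called (adjusted p = 0.1196). The change of the genotype difference between these ages was 1.11 ± 0.44 (adjusted p = 0.04638), a call that was lost in 13 of the 28 fits that left out 1 library (adjusted p of 0.05454 to 0.1128). The 13 were villin-PPARD replicates 1, 4 and 5 at 10 and at 55 weeks, and wild-type replicates 2, 3 and 4 at 10 weeks and 1, 2, 4 and 5 at 55 weeks.

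Hpgd, which inactivates prostaglandin E2, was the most abundant of the 9 per kilobase in every group, from 42.9 ± 11.6 CPM per kb in 55-week villin-PPARD mice (SD, n = 5) to 65.1 ± 12.2 CPM per kb in 25-week villin-PPARD mice (SD, n = 4). At 55 weeks it read 52.9, 91.9, 82.5, 49.5 and 84.2 CPM in villin-PPARD libraries, against 168, 124, 83.1, 83.9 and 81.2 CPM in wild-type libraries. The 2 lowest values were villin-PPARD and the 2 highest wild type, with the other libraries overlapping. The difference of −0.58 ± 0.26 (SE) was not called (Hpgd adjusted p = 0.0526, edgeR). It was called by DESeq2 (−0.61, adjusted p = 0.02379), by edgeR with DESeq2 size factors (−0.61, adjusted p = 0.04159) and with only the groups compared (−0.62, adjusted p = 0.03406), and in 14 of the 28 fits without 1 library (adjusted p of 0.03095 to 0.0485). These left out villin-PPARD replicate 3 or 4 at 10 or 25 weeks or replicate 2, 3 or 5 at 55 weeks, or wild-type replicate 1 or 3 at 10 weeks, 1 or 2 at 25 weeks, or 3, 4 or 5 at 55 weeks. At 10 and 25 weeks the Hpgd differences were −0.13 ± 0.26 and 0.10 ± 0.29, neither called.

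In the leukotriene branch both first-step genes were lower at 55 weeks. Alox5, which makes the leukotriene precursor, read 2.45, 1.18, 1.81, 3.06 and 1.28 CPM in villin-PPARD libraries, against 5.10, 7.54, 6.77, 6.43 and 6.71 CPM in wild-type libraries. The villin-PPARD values were the 5 lowest of all 28 libraries. The difference of −1.72 ± 0.21 (SE) left villin-PPARD mice at 0.303 of the wild-type level (Alox5 adjusted p = 3.042e-08, edgeR). It was not called at 10 weeks (0.05 ± 0.20) or 25 weeks (0.06 ± 0.23), and it changed by −1.77 ± 0.29 between 10 and 55 weeks (adjusted p = 1.39e-05) and by −1.79 ± 0.31 between 25 and 55 weeks (adjusted p = 5.476e-05).

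Alox5ap, the membrane protein that presents arachidonic acid to the Alox5 enzyme, read 2.85, 0.864, 1.39, 2.27 and 1.12 CPM in 55-week villin-PPARD libraries, against 3.35, 6.13, 3.56, 4.71 and 4.43 CPM in wild-type libraries. Those groups did not overlap, while 19 of the 23 other libraries of the series stood above the highest 55-week villin-PPARD library. The difference was −1.37 ± 0.25 (SE) and was called (Alox5ap adjusted p = 3.216e-05, edgeR). Its change from 10 weeks was −1.31 ± 0.35 (adjusted p = 0.004299) and from 25 weeks −1.15 ± 0.38 (adjusted p = 0.02233). The call against 25 weeks was lost without villin-PPARD replicate 1 of 25 weeks (adjusted p = 0.06339), villin-PPARD replicate 5 of 55 weeks (adjusted p = 0.05029) or wild-type replicate 2 of 55 weeks (adjusted p = 0.05001), and with library size alone (−0.87, adjusted p = 0.09751). Alox5ap shares 189 exonic bases with the antisense gene Gm19719, whose reads cannot be told apart from it.

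Tuft cells, the chemosensory cells of the gut epithelium, are known to express Alox5, Alox5ap, Ptgs1 and Hpgds in mice, so a list of tuft cell markers was read beside these genes. Of 7 tested markers, 5 were lower in villin-PPARD mice at 55 weeks and 1 was higher, beside 27.6% and 31.7% of all genes. Trpm5, a taste-signalling channel, averaged 4.27 CPM in villin-PPARD mice and 13.4 CPM in wild-type mice (−1.64 ± 0.19, SE), and Dclk1, a tuft cell kinase, averaged 2.31 and 12.4 CPM (−2.40 ± 0.30). Sh2d6 (−2.82 ± 0.31), Gnat3 (−3.29 ± 0.30) and Pou2f3, the transcription factor of the lineage (−1.72 ± 0.32), were also lower. Avil was higher by 0.53 ± 0.14 and Cd24a, at −0.02 ± 0.12, was not called. The 5 lower markers were not called at 10 or 25 weeks. The summed level of the list did not follow them, at 1238 to 1462 CPM in villin-PPARD libraries and 1172 to 1350 CPM in wild-type libraries, with 777 and 790 CPM of it from Cd24a and 566 and 393 CPM from Avil (villin-PPARD and wild-type means). None of the list was at 0, and its part in the lower Alox5, Alox5ap and Ptgs1 was not tested.

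**Figure D3:**
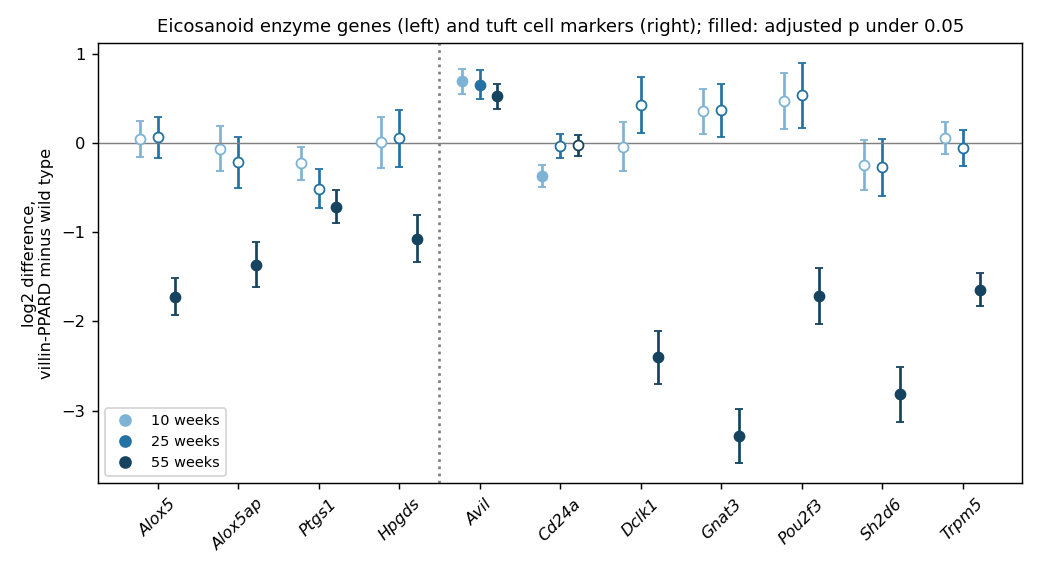
log2 difference (villin-PPARD minus wild type) at 10, 25 and 55 weeks for eicosanoid enzyme genes on the left of the dotted line and tuft cell markers on its right; bars are SE and filled points had an adjusted p under 0.05. At 55 weeks Alox5 (−1.72) and Alox5ap (−1.37) are low together with Trpm5 (−1.64), Pou2f3 (−1.72) and Dclk1 (−2.40). Of the same list Avil (0.53) is called higher and Cd24a (−0.02) is not called.

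Alox12 and Alox15, on chromosome 11, both rose at 55 weeks. Alox12, the platelet-type enzyme, spans 70241457 to 70255353 and Alox15, the leukocyte-type enzyme, spans 70344152 to 70352031, 88.8 kb apart on the minus strand (GRCm38), with 1 protein-coding gene between them. Alox15 was supported by 33 to 96 reads per villin-PPARD library at 55 weeks, against 1 to 13 reads per wild-type library. In CPM these were 2.25, 1.64, 1.27, 3.58 and 2.27 in villin-PPARD libraries, against 0.651, 0.222, 0.0891, 0.272 and 0.185 in wild-type libraries. The lowest villin-PPARD library stood above all 23 others, and the difference was 2.83 ± 0.34 (SE), or 7.12-fold (Alox15 adjusted p = 2.603e-08, edgeR). In the other groups Alox15 averaged 0.147 to 0.284 CPM, so that it passed the count filter only through the group where it was high. Its genotype difference grew by 2.92 ± 0.56 from 10 to 55 weeks (adjusted p = 0.0001141). From 25 to 55 weeks it grew by 2.11 ± 0.70 (adjusted p = 0.02271), a call that was lost without wild-type replicate 4 of 25 weeks (1.87, adjusted p = 0.09306).

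Alox12 read 2.14, 1.501, 1.04, 1.82 and 2.04 CPM in 55-week villin-PPARD libraries, against 0.701, 0.739, 0.891, 0.679 and 0.492 CPM in wild-type libraries. Here too every villin-PPARD value exceeded the 23 other libraries, although wild-type replicate 4 of 25 weeks reached 0.970 CPM. The difference of 1.31 ± 0.30 (SE) was a 2.47-fold excess (Alox12 adjusted p = 0.000493, edgeR). At 25 weeks the difference was −0.87 ± 0.41 and was not called (adjusted p = 0.09197). From that age to 55 weeks it changed by 2.18 ± 0.51 (adjusted p = 0.001727), and from 10 weeks by 1.43 ± 0.46 (adjusted p = 0.01545).

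Blood cells can carry these lipoxygenases, and their markers were counted beside them. Over all genes tested, 31.7% were called higher and 27.6% lower at 55 weeks. At 55 weeks, of 12 macrophage and monocyte markers 10 were higher in villin-PPARD mice and 0 lower, summing to 245 to 434 CPM in villin-PPARD libraries and 101 to 112 CPM in wild-type libraries. Csf1r and Mrc1 were not called. The sum was uneven: Cd14 averaged 104 CPM in villin-PPARD and 4.01 CPM in wild-type mice, a 26.0-fold excess, while C1qa was 1.72-fold and Adgre1 1.73-fold higher. Of 8 neutrophil markers the 5 tested were all higher. The list summed to 4.12 to 31.9 CPM in villin-PPARD libraries and 1.25 to 3.18 CPM in wild-type libraries, with Elane at 0 in both. Among the 5, S100a8, S100a9 and Retnlg averaged 2.70, 4.94 and 1.07 CPM in villin-PPARD mice and 0.0091, 0.15 and 0.055 CPM in wild-type mice. They passed the count filter only through the 55-week villin-PPARD libraries, so their calls cannot be taken apart from the filter. Of 4 platelet markers 2 were higher and 1 lower (sums of 2.93 to 8.72 CPM in villin-PPARD and 3.15 to 5.52 CPM in wild-type libraries). Of 2 tested eosinophil markers 1 was higher, with Epx at 0 in both groups (sums of 1.59 to 3.58 CPM in villin-PPARD and 1.25 to 3.15 CPM in wild-type libraries). Mast cell markers split, with 2 of 9 higher and 6 lower (sums of 96.2 to 216 CPM and 72.8 to 111 CPM, villin-PPARD and wild-type libraries). Squamous forestomach markers had 3 of 7 higher and 1 lower (8.78 to 35.8 CPM in villin-PPARD and 4.48 to 15.2 CPM in wild-type libraries). Dsg3, among the higher ones, also passed the count filter only through the 55-week villin-PPARD libraries (means of 1.91 and 0.133 CPM, villin-PPARD and wild type). Fibroblast markers had 0 of 8 higher and 1 lower (398 to 662 CPM in villin-PPARD and 433 to 531 CPM in wild-type libraries). Among stomach cells at 55 weeks, all 6 parietal markers were lower (148 to 446 CPM in villin-PPARD libraries, 5513 to 9583 CPM in wild-type libraries), as were 4 of 5 chief cell markers (316 to 1283 CPM in villin-PPARD and 19520 to 70650 CPM in wild-type libraries). Of 6 pit cell markers 4 were lower and 1 higher (36360 to 71070 CPM in villin-PPARD and 136100 to 189400 CPM in wild-type libraries). At 10 and 25 weeks some of these markers were called and others were not. Over all 15812 genes, 2823 were called higher and 2557 lower at 10 weeks, and 3318 higher and 2944 lower at 25 weeks. Of the 12 macrophage and monocyte markers 2 were higher at 10 weeks and 3 at 25 weeks, with Mpeg1 3.69-fold and 4.14-fold higher at those ages and 3.41-fold at 55 weeks. The other marker called at 10 weeks was Cd68, and the others at 25 weeks were Cd68 and Cd14. The rest of that list was not called at either age. Il5ra, an eosinophil marker, was also called higher at 10 and 25 weeks, at 0.423 and 0.816 CPM in villin-PPARD mice and 0.0106 and 0.0123 CPM in wild-type mice. It passed the count filter only through villin-PPARD libraries. None of the 5 neutrophil markers was called at 10 or 25 weeks, ages at which S100a8, S100a9 and Retnlg averaged 0 to 0.066 CPM. Lower were 1 mast cell marker at 10 weeks, 3 mast cell markers at 25 weeks and 2 platelet markers at 25 weeks. All 6 parietal markers were lower at 10 weeks (8469 to 10620 CPM in villin-PPARD libraries, 14320 to 16770 CPM in wild-type libraries) and 5 of 6 at 25 weeks, with 2 of 5 chief cell markers lower and 1 higher at both ages. The part of these cells in the enzyme differences was not tested.

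**Figure D4:**
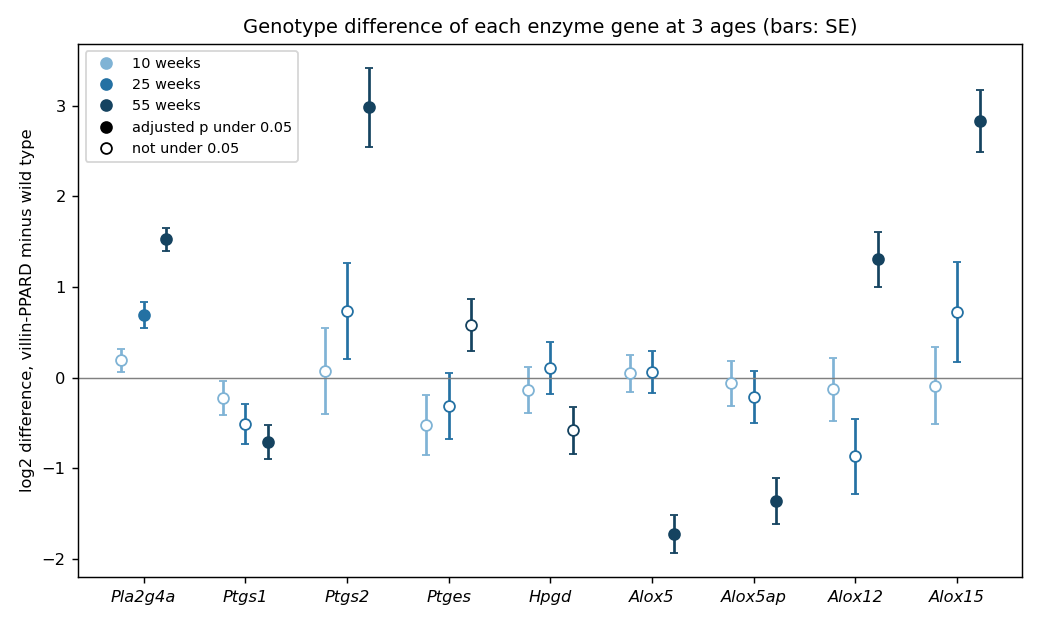
log2 difference (villin-PPARD minus wild type) of each of the 9 genes at 10, 25 and 55 weeks, with bars for SE; filled points had an adjusted p under 0.05. Of the 9 genes 0 were called at 10 weeks, 1 at 25 weeks and 7 at 55 weeks, 4 of them above 0 and 3 below.

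Tested one gene at a time, the same 7 genes separated the genotypes at 55 weeks. Libraries of both groups did not overlap for these 7, beside 43.3% of all genes tested. The 7 include Alox15, which was among the genes tested only through the group where it was high. For each, an exact two-sided permutation test on log2(CPM + 0.5) returned p = 0.00794, the smallest for 5 against 5 mice, and 0.0306 after adjustment over the 27 tests of 9 genes at 3 ages. The number passing was 7 without any 1 library outside the 55-week wild-type group and 0 without any 1 of the 5 libraries of that group. With so few mice the exact p moves in coarse steps. For the 55-week Ptgs2 share it was 0.0159 without any 1 wild-type library and 0.00794 without any 1 villin-PPARD library. The drop to 0 therefore cannot be read as dependence on a single wild-type library. Ptges reached an exact permutation p of 0.0238 (adjusted 0.0803) and Hpgd 0.135. For Pla2g4a at 25 weeks the exact permutation p was 0.0286, the smallest for 4 against 4, and 0.0858 after adjustment.

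With age, 7 of the 9 genes were called in villin-PPARD mice between 10 and 55 weeks, beside 51.7% of all genes, and 0 in wild-type mice, beside 12.7%. Between 10 and 25 weeks edgeR called 0 in villin-PPARD mice, beside 2.81% of all genes, and 0 in wild-type mice, beside 0.0126%. Before adjustment, p was under 0.05 for 1 gene in villin-PPARD mice between 10 and 25 weeks (Pla2g4a, which DESeq2 called) and, in wild-type mice, for 0 genes between 10 and 25 weeks and 3 between 10 and 55 weeks (Ptgs1, Ptges and Alox5), of which DESeq2 called 0. The 7 were Pla2g4a (1.15 ± 0.13, SE), Ptgs2 (2.85 ± 0.42), Ptges (1.83 ± 0.31), Alox12 (1.72 ± 0.31), Alox15 (3.04 ± 0.34), Alox5 (−1.31 ± 0.21) and Alox5ap (−0.95 ± 0.25), the last not called with library size alone (−0.51, adjusted p = 0.09654). The test of whether the genotype difference itself changed with age called 7 genes between 10 and 55 weeks, beside 36.4% of all genes, and 6 between 25 and 55 weeks, beside 28.9%. Both counts, and the 7 called with age in villin-PPARD mice, include Alox15, whose calls cannot be taken apart from the count filter. Between 10 and 25 weeks it called 0 of the 9, beside 0.00632%, with Pla2g4a at an unadjusted p under 0.05. Ptgs1 and Hpgd were called in none of these 3 tests, except Ptgs1 from 10 to 55 weeks without villin-PPARD replicate 3 of 55 weeks (−0.65, adjusted p = 0.04011). Ptges was called from 25 to 55 weeks only without wild-type replicate 1 of 25 weeks (adjusted p = 0.02693).

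The deposited column names sort the libraries into library groups, which overlap with age more than with genotype. All 55-week libraries belonged to the second group and all 25-week libraries to the first, except wild-type replicate 3, which was tagged as a replacement. Changes from 25 to 55 weeks therefore cannot be told apart from a difference between library groups, and those from 10 to 55 weeks cross library groups in part. Setting genotypes against each other within each age removes a shift that both genotypes share. It does not remove a genotype difference that itself varies between library groups, so the changes of the genotype difference from 25 to 55 weeks keep this limit. With a term for library group in the fit, each of the 7 genes called between 10 and 55 weeks in villin-PPARD mice was still called. At 10 weeks, where both groups occurred, Pla2g4a differed by 0.02 ± 0.13 (SE) in the first group (3 mice per genotype) and by 0.37 ± 0.13 in the second (2 per genotype; adjusted p = 0.04034, edgeR). Ptges differed by −0.30 ± 0.33 and −0.96 ± 0.36 (adjusted p = 0.04695 in the second), and of the 6 other genes tested there none was called within either group. Alox15 did not pass the count filter in either and was not tested there.

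Each called gene was compared with 13529 others for the shape of its 6 group means of log2(CPM + 0.5), centred on their own mean, by root mean square difference. Among so many genes a close match to 6 means can be found by number alone. No expected distance was worked out, so the matches only describe. Alox5 lay nearest to Trpm5, at 0.07 on the log2 scale, which is also on the tuft cell list, and then to Fcrls (0.07). Alox5ap lay nearest to Mapre3 (0.02) and Hspb8 (0.06), and Ptgs1 to Sfxn5 (0.06) and Hoxa5 (0.07), none of them on the tuft cell list. Among the genes that rose, Pla2g4a lay nearest to Pola1 (0.03), a DNA polymerase subunit, and Brip1 (0.05), a DNA repair helicase. The nearest to Alox15 were Cdkn2a (0.07), a cell cycle inhibitor, and Slc26a4 (0.07). Alox12 lay nearest to Pilrb1 and Tcf7 (0.07 each), and Ptgs2 to Tgtp2 (0.08) and Nkain1 (0.10).

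Of 56 other genes of the eicosanoid pathway, 42 were tested. At 10 weeks 7 were higher and 5 lower in villin-PPARD mice, 12 of 42 beside 34.0% of all genes. At 25 weeks 6 were higher and 10 lower, 16 of 42 beside 39.6%. At 55 weeks 12 were higher and 18 lower, 30 of 42 beside 59.3%, with a median log2 difference of −0.21 at 55 weeks, against 0.03 for all genes tested. Prostanoid synthesis had 2 of 9 higher and 6 lower at 55 weeks, and other phospholipases A2 had 3 of 12 higher and 4 lower. Uptake and breakdown of prostaglandins had 1 of 4 higher and 2 lower, prostanoid receptors 1 of 6 and 2, leukotriene synthesis and breakdown 2 of 6 and 3, and receptors of leukotrienes and related lipids 3 of 5 and 1. The 4 other lipoxygenase genes did not pass the count filter.

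Both the uptake carrier and an exporter of prostaglandins differed, as did 2 of the 4 prostaglandin E2 receptors. Slco2a1, which takes prostaglandins up into cells for breakdown, averaged 128 ± 36.8 CPM in villin-PPARD mice and 621 ± 144 CPM in wild-type mice at 55 weeks (SD, n = 5 each), a difference of −2.28 ± 0.18 (SE; adjusted p = 1.481e-11, edgeR). Abcc4, an exporter of prostaglandins, averaged 111 ± 19.0 and 49.6 ± 5.44 CPM (1.16 ± 0.11) and was also higher at 10 weeks (0.61 ± 0.11) and 25 weeks (0.71). Ptger4, a prostaglandin E2 receptor, averaged 62.6 ± 11.1 CPM in villin-PPARD mice and 17.5 ± 2.62 CPM in wild-type mice at 55 weeks (SD, n = 5 each), a difference of 1.83 ± 0.18, after 0.84 at 10 weeks and 1.45 at 25 weeks. Ptger3, another receptor of the same lipid, averaged 0.182 ± 0.118 and 4.56 ± 0.56 CPM (−4.70 ± 0.32). Each of these was called at the ages given. The receptors Ptger1 (2.93 ± 0.58 CPM in villin-PPARD mice and 4.72 ± 1.33 CPM in wild-type mice) and Ptger2 (0.542 ± 0.290 CPM in villin-PPARD mice and 0.476 ± 0.287 CPM in wild-type mice) were not called at 55 weeks (SD, n = 5 each).

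Among the other phospholipases, Pla2g1b, the digestive enzyme, averaged 31.3 ± 12.6 CPM in villin-PPARD mice and 10960 ± 4642 CPM in wild-type mice at 55 weeks (SD, n = 5 each; −8.45 ± 0.47, SE), next to the lower chief cell markers. Its mean was also the lower one in villin-PPARD mice at 10 weeks (7388 and 18200 CPM, villin-PPARD and wild type) and at 25 weeks (4624 and 15730 CPM). Pla2g2c averaged 0.0524 ± 0.0357 and 1.20 ± 0.27 CPM at 55 weeks (−4.46 ± 0.44) and was also lower at 25 weeks (−2.52). At 10 weeks it averaged 0.541 and 1.385 CPM (villin-PPARD and wild type). Pla2g4c, a relative of Pla2g4a, was higher by 1.09 at 10 weeks and by 1.39 at 25 weeks, both called, and by 0.13 ± 0.17 at 55 weeks, not called. At 10 weeks Pla2g10 (0.64) and the leukotriene B4 receptor Ltb4r2 (1.20) were higher, and at 25 weeks Fam213b, a prostaglandin F synthase, was lower (−1.78). Among the enzymes next to Alox5, Lta4h, which makes leukotriene B4, was higher at 55 weeks by 0.64 ± 0.08, and Ltc4s, which makes leukotriene C4, was lower (−0.61 ± 0.14). Hpgds, the prostaglandin D synthase of blood and tuft cells, differed by −1.07 ± 0.27 and Ptgds by −5.25 ± 0.59, and both were called.

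**Figure D5:**
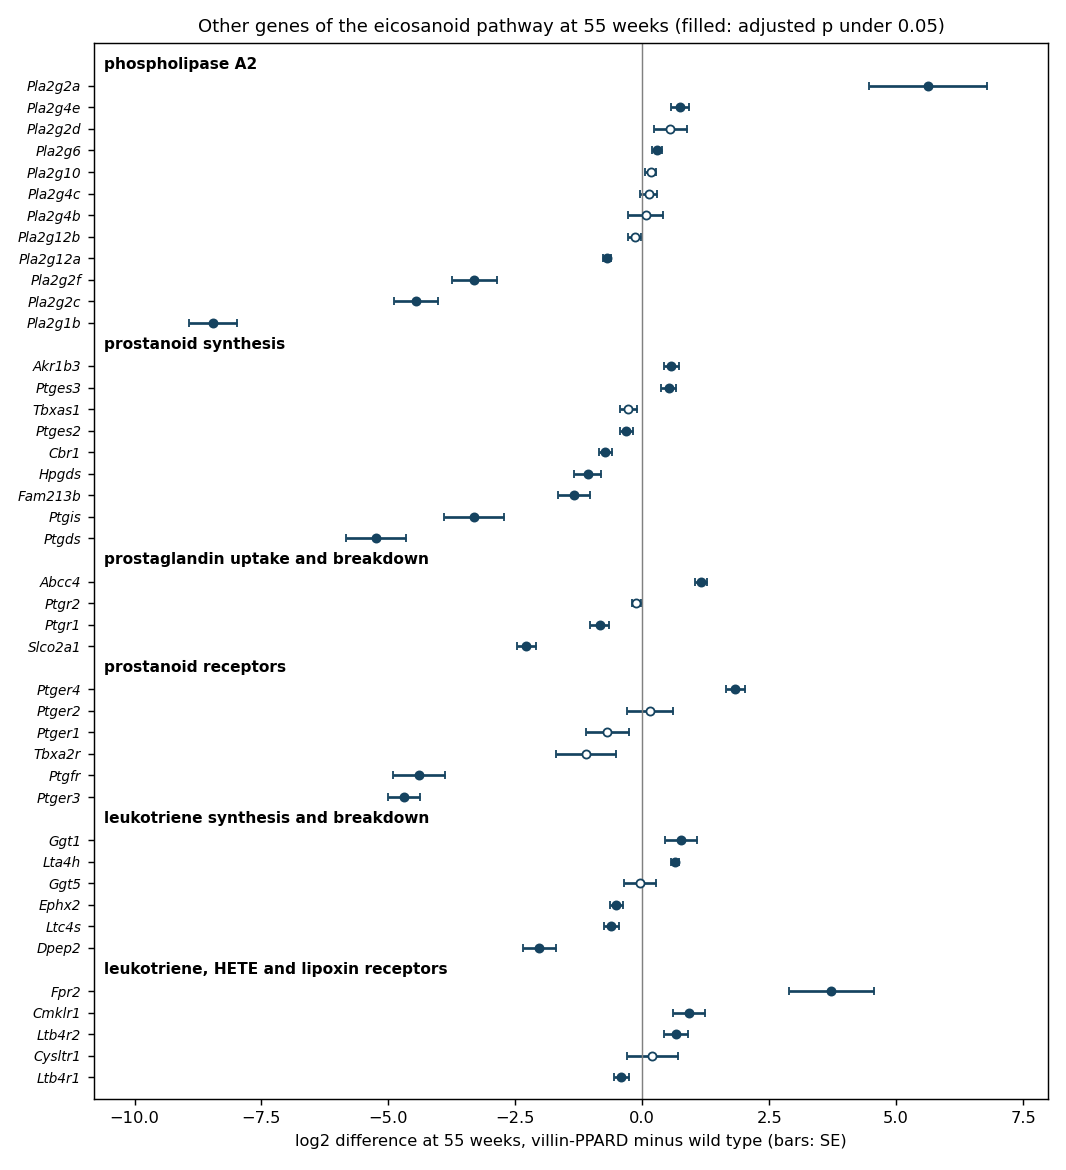
log2 difference (villin-PPARD minus wild type) at 55 weeks for the tested genes of the eicosanoid pathway other than the 9, grouped by role; bars are SE and filled points had an adjusted p under 0.05. Of the 42 genes 12 are filled above 0 and 18 below, from Pla2g1b at −8.45 to Pla2g2a at 5.63, a gene with 234 reads in 1 villin-PPARD library and 4 to 107 in the other 4.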

How the data were processed

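RNA from hand-scraped corpus epithelium was sequenced in 28 libraries. Per the labels' protocols, the kit selected polyadenylated RNA and did not mark strand. The deposited values are raw read counts per gene symbol, made by the authors with TopHat2 (2.0.14), HTSeq (0.6.1) and mm10, per the submitters' processing notes, which also name DESeq2. The annotation and strand setting were not given in the sources used here. From the counts, filterByExpr left 15812 of 49492 genes, and TMM-scaled edgeR (4.0.16, R 4.3.3) quasi-likelihood tests took 10 contrasts from 1 model holding all 28 libraries and a mean per group, with Benjamini-Hochberg adjustment. The SE of a log2 difference is its size over the root of the F statistic. Single genes were also tested by exact permutation at a pseudocount of 0.5 CPM. The test was checked on simulated data. Alternatives were DESeq2 (1.42.0) size factors and Wald tests, library size alone, no filter, a replicate block, a library group term, fits within library groups, only the groups compared, and removal of each library. The 9 genes and all lists were chosen with earlier results of these data known. Besides the 9 genes, the text names the 5 pathway genes of lowest adjusted p per age, other called pathway genes and the 2 nearest genes in group pattern. Reads had no molecular identifiers. A gene first placed on the tuft cell list is not reported here, for a reason unrelated to its values.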

Additional observations from a re-analysis of the deposited data

Results flagged for a closer look

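In 54 groups of 4 or 5 libraries, 2 had a library far from the others, where chance gives about 1 in 20. Ptgs1 read 10.1 CPM in wild-type replicate 3 of 55 weeks, with the nearest library at 8.21 CPM. Alox5 read 3.96 CPM in wild-type replicate 2 of 25 weeks, with the nearest at 4.65 CPM.

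The genotype difference (villin-PPARD minus wild type, log2) changed between ages in 13 cases by edgeR's interaction test. From 10 to 55 weeks it grew by 1.43 in Alox12, 2.92 in Alox15, 1.33 in Pla2g4a, 1.11 in Ptges and 2.91 in Ptgs2, and it changed by -1.77 in Alox5 and -1.31 in Alox5ap. From 25 to 55 weeks it grew by 2.18 in Alox12, 2.11 in Alox15, 0.83 in Pla2g4a and 2.25 in Ptgs2, and it changed by -1.79 in Alox5 and -1.15 in Alox5ap. These 25-week and 55-week libraries were in different library groups, so a genotype difference that varies between library groups cannot be told apart from a change with age.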

How the results depend on the processing

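No called result changed direction, and the count of 7 of the 9 genes called at 55 weeks ran from 7 to 9 over all alternatives. Within the second library group 2 of the 9 genes and 21 other pathway genes were called at 10 weeks, against 0 and 12 over all libraries. DESeq2 called 2 of the 9 at 25 weeks, and leaving out 1 library gave 1 to 2. For villin-PPARD mice at 25 against 10 weeks, 445 genes were called over all, 914 with library size alone, 246 with no filter, 208 with a library group term, 1146 by DESeq2 and 64 to 1862 without 1 library. Of the 9 genes 1, Pla2g4a, was then called with library size alone, with the library group term and by DESeq2, and 0 to 1 without 1 library. For wild-type mice at 25 against 10 weeks, 2 genes were called over all, 1 with library size alone, 1 with only the groups compared, 0 with the library group term and 0 to 2 without 1 library. The wild-type count at 55 against 10 weeks was 2007 over all, 626 with the library group term and 1203 to 2495 without 1 library, and with only the groups compared 1 of the 9 genes, Ptges, was called there. The change of the genotype difference from 10 to 25 weeks was called in 1 gene over all, 0 with library size alone, 0 with the library group term, 48 by DESeq2 and 0 to 32 without 1 library. Single-gene permutation tests passed in 7 genes at 55 weeks and in 0 to 7 without 1 library, 0 being the count without any 1 of the 5 wild-type 55-week libraries. The exact p moves in coarse steps with so few mice, so this 0 cannot be read as dependence on 1 library. The Ptgs2 share differed by 41.5 to 51.7 percentage points at 55 weeks without 1 library, a setting added after the data were seen, and at 25 weeks by 8.12 to 14.2. Ptges lost its change from 10 to 55 weeks with DESeq2 size factors (1.10, adjusted p = 0.05193) and with no filter (adjusted p = 0.06733). Replicate numbers did not pair the libraries: 3 of 14 same-numbered pairs correlated over 0.1, and 1 of 14 villin-PPARD libraries correlated best with its own number. With the number as a block, the wild-type count at 25 against 10 weeks was 1, and no other count of calls moved by over 1.5 times. The term for library group gives the replacement library a level of its own. The cause of these changes was not tested. Depth limits Alox15 and Alox12, which had as few as 1 and 2 reads in a library.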

Other observations

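Alox12e, a lipoxygenase gene that lies between Alox12 and Alox15 on chromosome 11 (70315610 to 70322628, minus strand, GRCm38), did not pass the count filter and was not tested. It had 3 to 32 reads per library in 55-week villin-PPARD mice, a mean of 0.557 ± 0.357 CPM (SD, n = 5), against 0 to 2 reads in 55-week wild-type mice, a mean of 0.0592 ± 0.0396 CPM (SD, n = 5). In the 4 younger groups it had 0 to 2 reads per library. Fpr2, a receptor for formyl peptides and lipoxin, was likewise low and was higher in villin-PPARD mice at 55 weeks. It had 1 to 31 reads per villin-PPARD library and 0 to 2 per wild-type library (log2 difference 3.72 ± 0.84, SE). With so few reads the 55-week wild-type libraries could not carry it past the count filter. The difference only describes these libraries. Alox8 averaged 0.310 ± 0.215 CPM in villin-PPARD mice and 0.482 ± 0.187 CPM in wild-type mice at 55 weeks (SD, n = 5 each), and Alox12b and Aloxe3 had at most 3 reads in any library. These genes were chosen after their values were seen.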
